A study of Rattus norvegicus with 4 samples.

Results

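The features studied here are those of the rat Cyp3a and Cyp4 families of cytochrome P450 on a spotted cDNA array. They were taken by name, as every feature whose platform annotation holds a single gene symbol that starts with Cyp3a, or with Cyp4 and a letter. This gave 11 of the 1936 features of the array, 1 for Cyp3a (Cyp3a23-3a1) and 10 for Cyp4 (8 of Cyp4f, 1 of Cyp4a and 1 of Cyp4b), which stand for 7 genes. A further 4 Cyp4a features carry 2 gene entries each, so they are no members. Their values are given apart, and describing them was decided after the values were seen.

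The livers came from male Sprague-Dawley rats that had received 1 intraperitoneal injection of α-naphthylisothiocyanate (ANIT, 75 mg/kg) dissolved in olive oil, or of olive oil alone, and were killed 24 h later. ANIT is a toxicant of the bile duct epithelium that produces cholestasis in rodents. No genotype other than the strain is labelled, and no age is stated in the labels. RNA of the right lateral lobe of 3 rats per condition was mixed, so each condition is 1 pool, the spread between animals is unknown and the treatment has no test. The ANIT pool and the olive oil pool shared each of 4 arrays, and the dyes were swapped: the ANIT pool carried Cy5 on arrays 1 and 3, whereas arrays 2 and 4 had it labelled with Cy3. Every SD below is over these 4 hybridisations of the same pools.

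Each value is a log ratio, read as log2 of the ANIT pool over the olive oil pool. This direction is likely, since the labels put olive oil in channel 1 and ANIT in channel 2 throughout, but it is not stated, and the opposite direction would turn every sign. A ratio gives no expression level, so levels of different genes cannot be compared. A feature is called lower or higher when its mean ratio is at least 2-fold (1 on the log2 scale) and all 4 arrays have the same sign. By this rule 59 of all features (3.05%) were lower and 15 (0.775%) higher. Centring every array on its own median adds 0.17 to each mean, and 48 were then lower and 22 higher.

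Cytochrome P450 enzymes of these families are haem proteins of the endoplasmic reticulum that insert an oxygen atom into their substrates. Their electrons come from the P450 reductase Por and from cytochrome b5. Cyp3a enzymes oxidise drugs, steroids and bile acids, and in hepatocytes their genes are classic targets of the pregnane X receptor (PXR, Nr1i2). Cyp4 enzymes hydroxylate the far (omega) end of fatty acids. The Cyp4a genes are classic targets of the fatty acid receptor PPAR-alpha, whereas Cyp4f enzymes act on long-chain fatty acids and on eicosanoids such as leukotriene B4, which they inactivate.

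The stretch before the gene start is shown for a gene of each kind, because it is where the receptors named above could meet these genes. The sequences are the 250 bases before the annotated start in RefSeq (GRCr8), all from the minus strand and printed 5′ to 3′: chr12:14398804-14399053 for Cyp3a23-3a1, chr5:134352237-134352486 for Cyp4a3, chr7:12672554-12672803 for Cyp4f1 and chr7:12708379-12708628 for Cyp4f6. Capitals mark matches to the nuclear receptor core motifs AGGTCA and AGTTCA on either strand, and to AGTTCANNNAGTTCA, a direct repeat of the second with 3 bases between.
Cyp3a23-3a1: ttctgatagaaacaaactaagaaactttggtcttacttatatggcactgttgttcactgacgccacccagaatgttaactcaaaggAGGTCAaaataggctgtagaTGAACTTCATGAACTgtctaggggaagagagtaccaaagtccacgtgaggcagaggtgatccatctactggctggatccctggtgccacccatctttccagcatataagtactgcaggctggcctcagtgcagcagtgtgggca
Cyp4a3: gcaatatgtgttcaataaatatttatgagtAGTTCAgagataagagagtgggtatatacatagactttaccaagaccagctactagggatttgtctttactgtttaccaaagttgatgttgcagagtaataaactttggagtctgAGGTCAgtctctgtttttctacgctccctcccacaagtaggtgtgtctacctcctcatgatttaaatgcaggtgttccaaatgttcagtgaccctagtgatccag
Cyp4f1: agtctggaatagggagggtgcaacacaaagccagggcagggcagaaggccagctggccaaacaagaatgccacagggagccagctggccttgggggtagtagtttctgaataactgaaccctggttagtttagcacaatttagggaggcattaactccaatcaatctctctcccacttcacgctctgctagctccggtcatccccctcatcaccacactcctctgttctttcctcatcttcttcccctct
Cyp4f6: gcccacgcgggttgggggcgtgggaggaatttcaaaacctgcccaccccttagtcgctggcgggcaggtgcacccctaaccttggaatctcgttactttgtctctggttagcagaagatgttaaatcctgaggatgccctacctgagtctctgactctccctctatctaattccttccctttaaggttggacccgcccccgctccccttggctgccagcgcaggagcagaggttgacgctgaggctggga

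The window of Cyp3a23-3a1 held the direct repeat at positions -144 to -130, read on the opposite strand. The capitals of the repeat therefore include both of its AGTTCA matches. Of 33469 promoter windows in the table, 2 (0.00598%) held it, and both belong to Cyp3a genes, Cyp3a23-3a1 and Cyp3a2. At that spacing only this form of the repeat was searched, so the share does not cover other forms. Repeats of this spacing are known binding sites of PXR. The same window held AGGTCA at -164 to -159, a motif found in 14.1% of all windows. The windows of Cyp4a3 and Cyp4a2 each held AGGTCA at -105 to -100 and AGTTCA (12.2% of all windows) at -220 to -215. Compared position by position without alignment, these windows were identical at 167 of 250 positions. Stretches shifted by a gap count as different here, so this is no measure of their full similarity. Neither core motif was found in the windows of Cyp4f1, Cyp4f6, Cyp4a8 or Cyp4b1, which says only that these letters do not occur there. The direct repeat of AGGTCA with 1 base between, in 0.0508% of windows, occurred in none of the windows of these genes, nor did TATAAA (12.9%). CCAAT (34.0%) occurred in that of Cyp4f1, at -94 to -90. Promoter entries were matched for 5 of the 7 member genes, not for Cyp4f4 or Cyp4f17. Cyp4f1 and Cyp4f6 are next to each other in the annotation with 0 genes between, as are Cyp4a3 and Cyp4a1, and Cyp4a1 and Cyp4b1.

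Cyp4f4, one of the leukotriene-oxidising enzymes, had the lowest mean ratios over the 4 arrays of all members and was the only member gene called lower. On the Cy5 arrays alone Cyp4a8 had the lowest value (-1.36), and on the Cy3 arrays it was above 0 (0.64). Both Cyp4f4 features passed the rule, and no member was called higher. The other 9 member features did not pass. Thus 2 of 11 members were lower, beside 3.05% of all features, and 0 were higher, beside 0.775%. The 2 lower members are of 1 gene, and by gene means 1 of 7 member genes was lower, beside 3.55% of the 958 genes with 1 symbol. Among the 50 features of other P450 genes, 9 were lower and 2 higher, so lower features were not particular to these families. At a 1.5-fold limit 5 of 11 members were lower (6.92% of all features) and 0 higher (2.48%), and all 5 belong to Cyp4f.

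Feature 642 of Cyp4f4 had log2 ratios of -1.25, -1.43, -1.16 and -1.05 on arrays 1 to 4. Its mean of -1.22 ± 0.16 (SD, n = 4 hybridisations) is a 2.33-fold lower signal in the ANIT pool. Feature 750 of the same gene had -0.99, -1.06, -1.18 and -0.88, with a mean of -1.03 ± 0.13, or 2.03-fold lower. On both features all 4 arrays lie close together and the 2 dye orientations overlap. Feature 750 stood at the limit of the rule: it had -0.98 without array 2 and -0.98 without array 3, and -0.86 with centred arrays, and so missed 2-fold in each case. Feature 642 stayed past the limit in these cases, at -1.13, -1.24 and -1.06. The gene mean of Cyp4f4 was -1.12 ± 0.12.

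**Figure D1:**
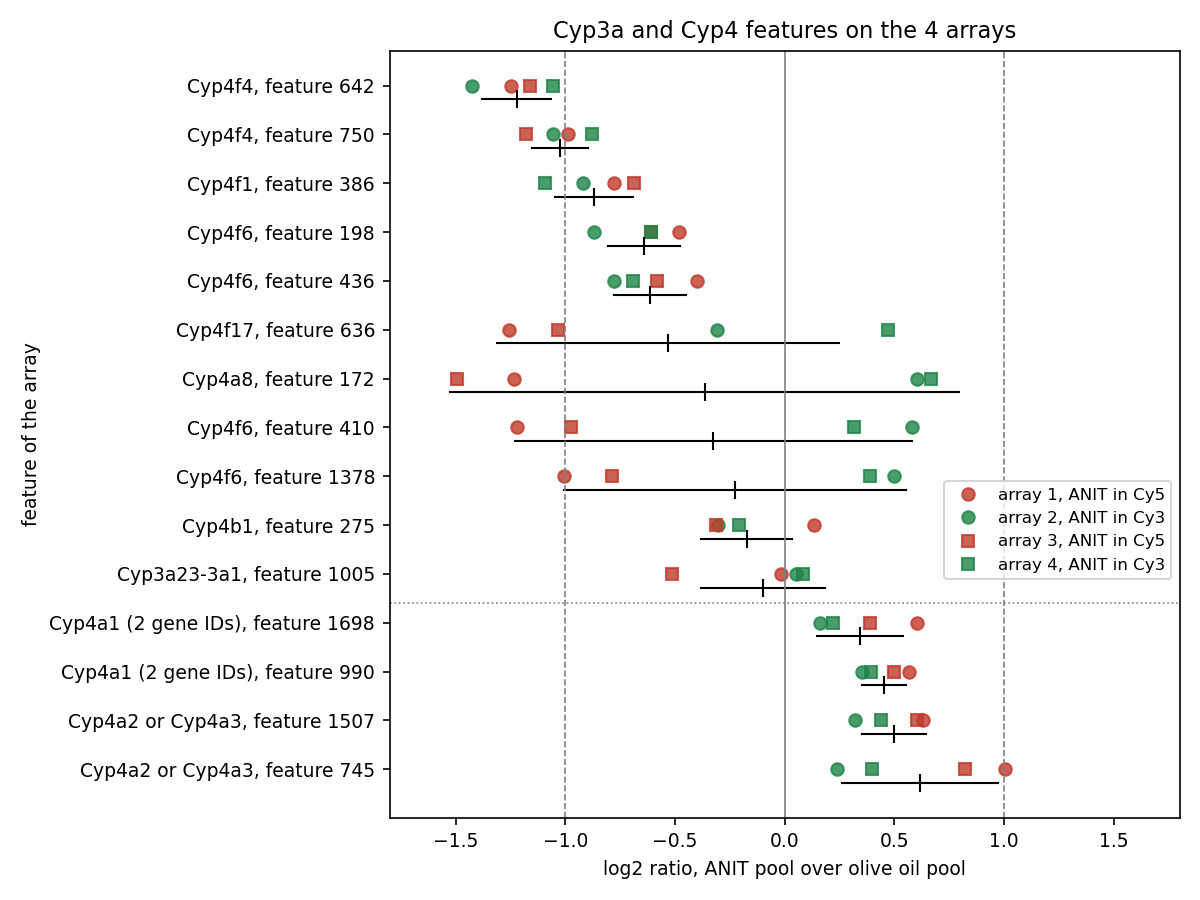
The log2 ratio of the ANIT pool over the olive oil pool (horizontal axis) of each of the 11 member features and, below the dotted line, of the 4 Cyp4a features with several gene entries. Points are single arrays coloured by the dye of the ANIT pool, black ticks and bars are the mean ± SD over 4 arrays, and dashed lines mark 2-fold; the Cyp4f4 features lie at or below -0.88 on every array, and the 4 lowest rows lie between 0.16 and 1.00.

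Cyp4f1, a liver Cyp4f enzyme of omega hydroxylation, had ratios of -0.78, -0.92, -0.69 and -1.09. Its mean of -0.87 ± 0.18 (1.83-fold lower) did not reach 2-fold. All 4 arrays were below 0, and the arrays with ANIT in Cy3 were the lower ones. If the values were natural instead of base 2 logarithms, the mean would be -1.25 on the log2 scale and Cyp4f1 would pass the rule as well.

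Cyp4f6, the fourth measured member of the Cyp4f group, was spotted as 4 features, and these fell into pairs. Feature 198 had -0.48, -0.87, -0.61 and -0.61 (mean -0.64 ± 0.16, 1.56-fold lower), and feature 436 had -0.40, -0.78, -0.58 and -0.69 (mean -0.61 ± 0.16, 1.53-fold lower). Both were below 0 on every array, although neither reached 2-fold. Feature 410 had -1.22, 0.58, -0.97 and 0.31 (mean -0.33 ± 0.90), and feature 1378 had -1.01, 0.50, -0.79 and 0.39 (mean -0.23 ± 0.78). These last features were low on both arrays with ANIT in Cy5 and above 0 on both arrays with ANIT in Cy3, with no overlap between the dye orientations. The average of all 4 features, -0.45 ± 0.35, mixes both behaviours.

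Cyp4f17, a further gene of the Cyp4f cluster, had -1.25, -0.31, -1.03 and 0.47 (mean -0.53 ± 0.78). It was likewise lower with ANIT in Cy5 and did not pass the rule. Over the 8 Cyp4f features the median was -0.63, beside -0.25 over all features, and 2 were called lower. The median of the 4 Cyp4f gene means was -0.70, beside -0.24 over the 958 genes with 1 symbol.

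The features named so far were 5 with the same sign on all arrays and 3 that went with the dye. To describe this, a dye contrast was formed as the mean of the arrays with ANIT in Cy5 minus the mean over both orientations. Features with a contrast of -0.5 or below, a limit chosen after the values were seen, made up 43.2% of all features and 4 of the 11 members: Cyp4f17 (-0.61), Cyp4f6 features 410 (-0.77) and 1378 (-0.67), and Cyp4a8 (-1.0). The other 7 members had contrasts between -0.17 and 0.14.

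Cyp4a8, the only Cyp4a gene among the members, had ratios of -1.24, 0.60, -1.49 and 0.67. Its mean was -0.36 ± 1.16, with both Cy5 arrays far below 0 and both Cy3 arrays above. The median of all 837 features past the dye limit was -1.21, 0.54, -1.19 and 0.55 on the same arrays, and -0.34 in the mean over arrays. Cyp4a8 thus lies near the middle of that class. The interquartile range of the class spans -0.43 to -0.25 in the mean, against -0.32 to 0.14 for the other 1099 features. Spot intensities were not used here, and whether the dye-following features carry signal of their gene was not tested.

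**Figure D2:**
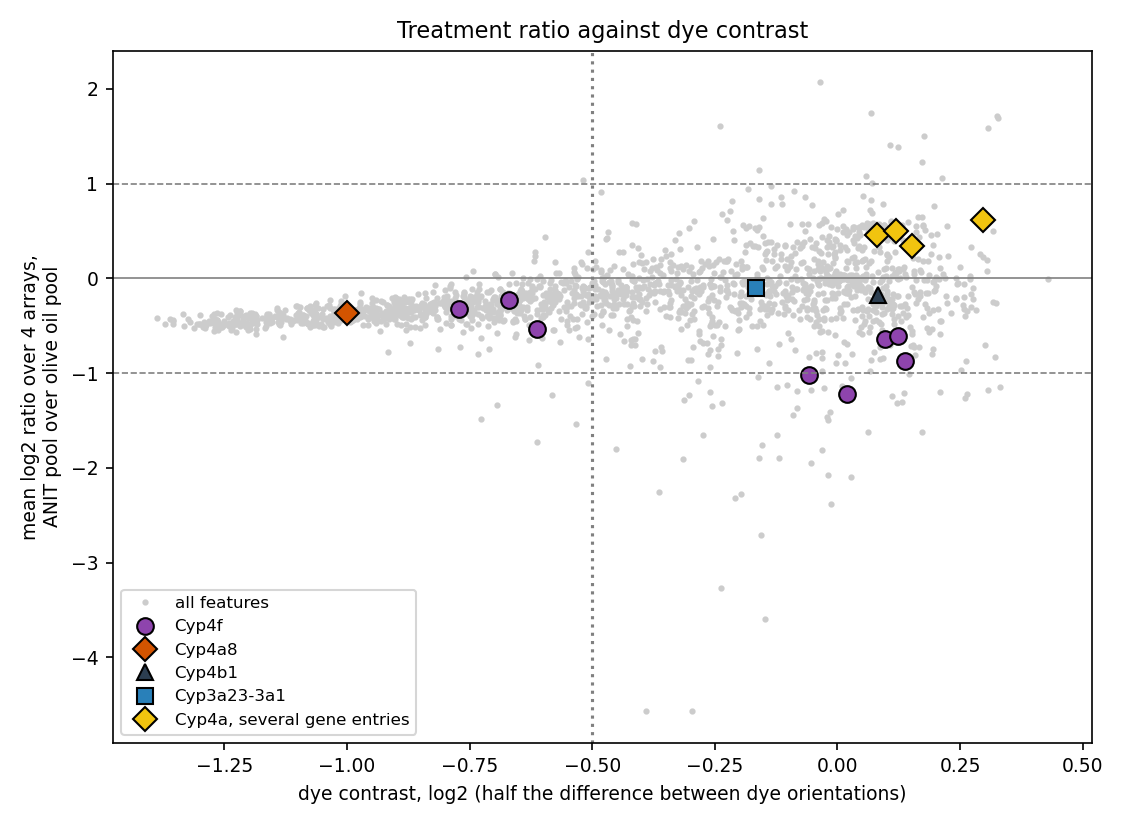
The mean log2 ratio over 4 arrays (vertical axis) against the dye contrast on the log2 scale (horizontal axis) for all 1936 features in grey, with the members and the 4 Cyp4a features of several gene entries in colour. Dashed lines mark 2-fold and the dotted line the dye limit of -0.5; Cyp4a8 and 3 Cyp4f features lie left of it in the narrow band of features, and the 5 other Cyp4f features lie to the right between -1.22 and -0.61.

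Against the other features of the arrays, 5 of 11 members were below 0 on all 4 arrays (17.6% of all features) and 0 were above 0 on all 4 (11.9%). The 5 are the features of Cyp4f4 and Cyp4f1 and the first pair of Cyp4f6. Among the 50 features of other P450 genes, 21 were below 0 on all 4 arrays and 10 above. Set against each array's median, 3 of 11 members, Cyp4f4 (both features) and Cyp4f1, were below it on all 4 arrays (11.0% of all features) and 0 were above it on all 4 (11.8%). Features 198 and 436 of Cyp4f6 were below the array median on the Cy3 arrays and above it on the Cy5 arrays. The array medians themselves moved with the dye, from -0.68 and -0.64 on the Cy5 arrays to 0.31 and 0.35 on the Cy3 arrays.

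Among the members in order of their mean ratio there are 10 neighbouring pairs, and 1 of them differed the same way on all 4 arrays. This was Cyp4f6 feature 198, which was above Cyp4f1 by 0.23 ± 0.20. The other 9 pairs went both ways over the arrays. The order is therefore a description of the means.

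Cyp4b1, which oxidises short fatty acids and foreign compounds and is best known from lung, had 0.13, -0.30, -0.32 and -0.21. Its mean of -0.17 ± 0.21 was above those of all Cyp4f features and did not pass the rule. With centred arrays it was -0.0089.

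The single Cyp3a feature, Cyp3a23-3a1, a major drug- and steroid-oxidising P450 that PXR ligands induce in rat liver, showed no ratio of a size that these arrays could separate from 0. Its values were -0.016, 0.052, -0.51 and 0.083. Array 3 was low and the other 3 lay near 0, which gave a mean of -0.10 ± 0.28. Without array 3 the mean was 0.026, and with centred arrays 0.066, so the sign is not settled. The feature was above the mean of the 8 Cyp4f features on 4 of 4 arrays, by 0.58 ± 0.23, a comparison within each array that no centring can change. Other Cyp3a genes, such as Cyp3a2, were not analysed here. A cDNA spot may also bind transcripts of close relatives, and this was not tested for any member.

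The 4 Cyp4a features with several gene entries pointed the other way from Cyp4f. They stand for Cyp4a1, which is the PPAR-alpha-inducible fatty acid hydroxylase first known from clofibrate-treated rats and is listed here under 2 gene IDs, and for Cyp4a2 and Cyp4a3, which share their features in the annotation and cannot be told apart. The Cyp4a1 features had 0.60, 0.16, 0.39 and 0.22 (feature 1698, mean 0.34 ± 0.20) and 0.57, 0.35, 0.50 and 0.39 (feature 990, mean 0.45 ± 0.099). The features of Cyp4a2 or Cyp4a3 had 0.63, 0.32, 0.60 and 0.44 (feature 1507, mean 0.50 ± 0.15) and 1.00, 0.24, 0.82 and 0.40 (feature 745, mean 0.62 ± 0.36, or 1.53-fold higher). All 16 values were above 0, and the ratios were larger with ANIT in Cy5. None of the 4 reached 2-fold, 1 reached 1.5-fold, and all 4 were above 0 on every array (11.9% of all features). With centred arrays the means were 0.51 to 0.78, and 2 of the 4 were above the array median on all arrays (11.8% of all features).

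Within each array the mean of these 4 Cyp4a features exceeded the mean of the 8 Cyp4f features by 1.62, 0.80, 1.45 and 0.76, on average 1.16 ± 0.44. Against the 5 Cyp4f features above the dye limit the difference was 1.48, 1.28, 1.42 and 1.23, on average 1.35 ± 0.12, or 2.55-fold. The Cyp3a23-3a1 feature lay between, below the 4 Cyp4a features by 0.72, 0.22, 1.09 and 0.28 on the 4 arrays. The groups were compared after their values were known, so these differences are descriptions of the pools.

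The features with the pattern most like Cyp4f4 were taken by the root mean square difference over the 4 arrays. For feature 642 they were those of Notch3, a signalling receptor (0.099), Igfals, a plasma carrier of insulin-like growth factors (0.11), and Tst, a mitochondrial sulphur transferase (0.13). For feature 750 they were Gstt1, a glutathione S-transferase (0.11), Cdk1, a cell cycle kinase (0.13), and Slc29a1, a nucleoside carrier (0.13). All these features had means between -1.21 and -0.97.

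The partner and pathway genes were described by gene means, of which 34 of 958 (3.55%) were lower by the 2-fold rule and 6 (0.626%) higher. In this and the later lists only genes with a feature of 1 symbol count as measured. None of the 5 measured electron donors passed. Por, which passes electrons to all P450 enzymes of the endoplasmic reticulum, was above 0 on every array (0.36 ± 0.15), whereas Cyb5r3, the reductase of cytochrome b5, stood just short of 2-fold lower (-0.97 ± 0.57). The value of Cyb5r3 depended on the dye, with -1.46 on the Cy5 arrays and -0.49 on the Cy3 arrays. Cytochrome b5 itself had -0.19 ± 0.11 for Cyb5a and -0.25 ± 0.29 for Cyb5b. Of the genes of haem synthesis and breakdown, 2 of 13 were measured, Blvra (-0.51 ± 0.31), a biliverdin reductase, and Hmox2 (-0.34 ± 0.91), a haem oxygenase. Neither passed.

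The receptors of the list were represented by 6 of 21 genes, with a median of -0.39, and none passed. Their median was -1.01 on the Cy5 arrays and -0.15 on the Cy3 arrays. Rxra, the partner with which PXR and PPAR-alpha bind DNA, had -0.51 ± 0.20 with all arrays below 0. Nr3c1, the glucocorticoid receptor, had -0.51 ± 0.49, the bile acid receptor Nr1h4 -0.85 ± 0.46 and the aryl hydrocarbon receptor Ahr -0.27 ± 0.96. All arrays of Nr1h4 were below 0 as well, whereas Ahr lay past the dye limit with a contrast of -0.83. PXR and PPAR-alpha themselves were not analysed here.

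Of 28 listed PPAR-alpha targets 7 were measured, with a median of -0.18. Among them 1 was lower and 0 were higher. Acsl1, the acyl-CoA synthetase, was the lower gene (-2.48 ± 0.31), and Me1, the malic enzyme, had -0.86 ± 0.36. Cpt1a, the entry enzyme of mitochondrial fatty acid oxidation, had -0.51 ± 0.87 and the fatty acid carrier Cd36 0.49 ± 0.55. The arrays of each lay on both sides of 0, and Cpt1a was past the dye limit with a contrast of -0.75. The median of the list was -0.51 on the Cy5 arrays, and 0.24 on the Cy3 arrays.

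The other targets of PXR and of the related receptor CAR were represented by 4 of 18 genes. Sult2a1 of this list shares its feature with Sult2a6 (mean -0.03) and was not counted. Slco1a4, an organic anion carrier, just passed the 2-fold limit as lower (-1.01 ± 0.22), and 0 were higher. With centred arrays it had -0.84 and was not called. Gsta2, a glutathione S-transferase, had -0.45 ± 0.11, the retinal dehydrogenase Aldh1a1 0.07 ± 0.49 and the canalicular pump Abcc2 0.40 ± 0.04.

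Of 16 genes of eicosanoid metabolism 6 were measured. Cyp2j3, an epoxygenase of arachidonic acid, was lower (-1.17 ± 0.13), close to Cyp4f4. Alox15, a lipoxygenase, was just short of 2-fold higher (0.97 ± 0.16) with all arrays above 0, and with centred arrays it passed as higher (1.14). Pla2g2a, a secreted phospholipase, had -0.67 ± 0.82, and Cyp2c23, another epoxygenase, -0.19 ± 0.12. Pla2g2a lay past the dye limit, with -1.38 on the Cy5 arrays and 0.04 on the Cy3 arrays. The 22 measured P450 genes outside both families had a median of -0.38, with 4 lower, 1 higher and 17 not past the rule. Cyp7a1 (-1.60 ± 0.78), Cyp27a1 (-1.31 ± 0.18) and Cyp8b1 (-1.19 ± 0.65) of bile acid synthesis were the lowest, and Cyp1a2, an enzyme induced through Ahr, the highest (1.46 ± 0.19). Cyp7a1 and Cyp8b1 had dye contrasts of -0.67 and -0.56, past the dye limit, and on the Cy3 arrays alone they had -0.93 and -0.63, short of 2-fold.

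**Figure D3:**
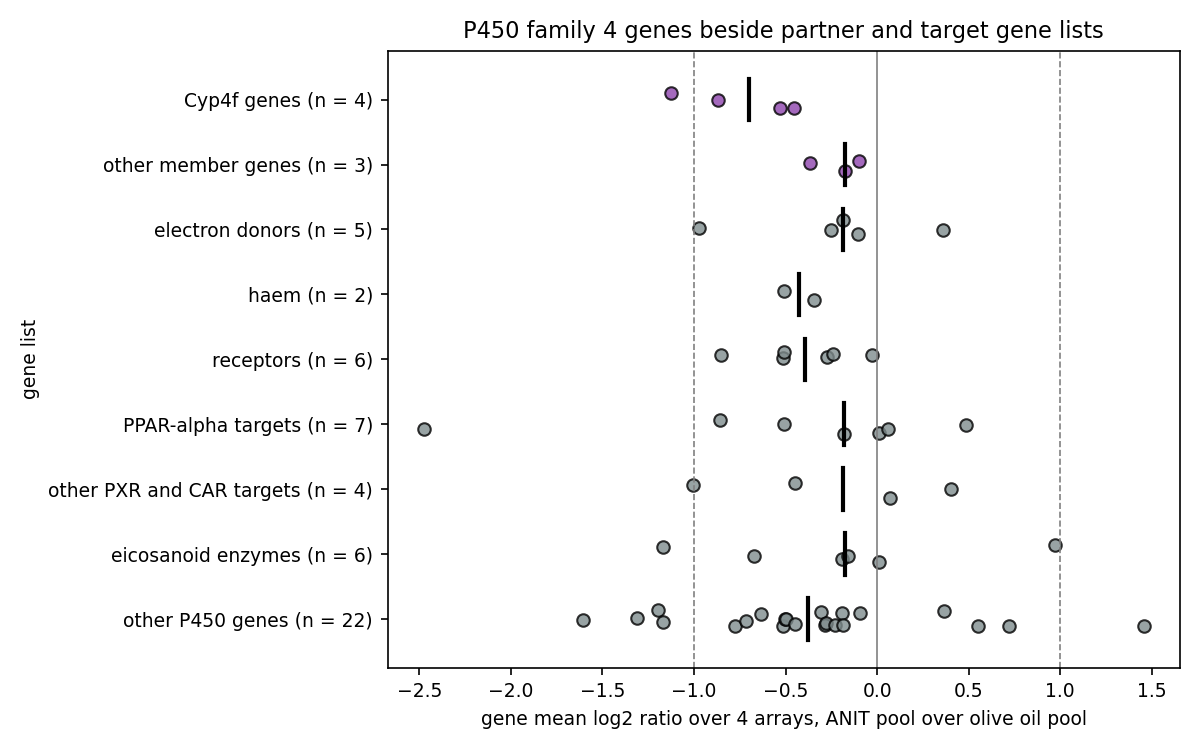
Gene means of the log2 ratio over 4 arrays (horizontal axis, ANIT pool over olive oil pool) for the member genes in purple and the genes of 7 lists in grey, 1 point per gene. Black bars are medians and dashed lines mark 2-fold; the Cyp4f median of -0.70 lies left of the medians of the 7 lists, which range from -0.42 to -0.17.

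Markers of cell types stood beside these ratios as follows. The 4 measured hepatocyte markers had a median of -0.07, between -0.28 (Serpina1) and 0.07 (Apoa1), and 0 passed the rule. The 3 cholangiocyte markers had a median of -0.31, the 3 endothelial markers -0.33 and the 3 markers of stellate cells and fibroblasts -0.11, with 0 past the rule. The neutrophil marker S100a9 had -0.13 ± 0.89 and the lymphocyte marker Il2rb -0.84 ± 0.12, and 0 of 7 macrophage markers were measured. Spp1, Ggt1, Cdh5, Tek, Col1a1, S100a9 and Serpina1 among these markers lay past the dye limit, as Cyp4a8 did. Zonal markers were few: of the pericentral genes Cyp7a1 was lower, Cyp1a2 higher and Cyp2e1 at -0.51 ± 0.44, and the periportal list held Pck1 alone (-0.58 ± 0.51). The part of cell composition in the Cyp ratios was not tested. In such mixed tissue, fewer cells of a type and less RNA per cell cannot be told apart, and ratios cannot show whether the labelled tissue expresses its markers.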

How the data were processed

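Per the labels, poly(A) RNA from mixed liver RNA of both conditions was labelled with Cy3 and Cy5 and co-hybridised to a cDNA array. The authors deposited a log ratio per feature and array, read here as log2 values and used without further centring. The log base, the ratio's direction, background correction and normalization have no statement in the labels or headers read. Base 10 is unlikely, as the largest absolute value of 4.96 exceeds the log10 of the largest 16-bit ratio, 4.82. All 1936 features had 4 values. The number of arrays limits the precision.

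Symbols came from the platform annotation: 1432 features had 1 symbol, 19 several and 485 none. All 11 members matched a RefSeq (GRCr8) gene ID with the same symbol. All members were named, up to 4 genes with the largest absolute mean per list, and the 3 features nearest to each called member. Members and lists were chosen with earlier results of these data known. Alternatives were the fold limit, centring, dye orientation, arrays left out, gene averages and the log base. Promoter windows were searched on both strands. Python 3.11.15, numpy 2.4.6, pandas 2.3.3 and matplotlib 3.10.9 were used.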

Additional observations from a re-analysis of the deposited data

Results flagged for a closer look

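The 4 array values of each of the 11 members and of the 4 Cyp4a features with several gene entries were screened for an array that stands apart. This was found for 1 of the 15 features, Cyp3a23-3a1, where array 3 (-0.51) lay apart from the other arrays (-0.016 to 0.083). The gap to the nearest array took 0.834 of the whole range, just above the 95% critical value of Dixon's test for 4 values, and chance gives such a gap in about 1 in 20 groups. The mean was -0.10 with array 3 and 0.026 without it, and neither value passed the 2-fold rule.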

How the results depend on the processing

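At a 1.5-fold limit 134 of all features were lower and 48 higher, and 5 Cyp4 features were lower. Read as natural logarithms, 113 were lower and 33 higher, and with the features of a gene averaged 34 and 6 genes, with Cyp4f4 as the 1 lower Cyp4 gene. With ANIT in Cy5 alone 667 features and 5 Cyp4 features were lower, and the Cyp4 median was -0.99, against -0.57 over all arrays. With ANIT in Cy3 alone 55 features and 2 Cyp4 features were lower, and the Cyp4 median was -0.50. The Cyp4 features past the limit differed: on the Cy3 arrays Cyp4f1 (-1.01) passed and Cyp4f4 feature 750 (-0.97) did not. The number of lower Cyp4 features was 1 with each array centred on its median or on the median of the features above the dye limit, an alternative added after seeing the data, and 1 to 2 with each array left out (1 without array 2 or array 3). The Cyp4 median was -0.34 with the 4 Cyp4a features of several entries and -0.76 without dye-following features, both also added later. The count of Cyp3a features past the rule was 0 in each alternative run, and no called member changed sign in any of them. With ANIT in Cy3 alone the means of Cyp4f17 (0.081), Cyp4a8 (0.64), Cyp4f6 feature 410 (0.45) and feature 1378 (0.44) were above 0, although the first 3 of these were among the 5 lower with ANIT in Cy5 alone. Depth in the sense of signal over background is unknown for all features.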
